A study of Oryza sativa Japonica Group with 3 samples.

Results

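Transcripts of 6 rice genes of the strigolactone pathway were followed in root tips, 3 of hormone synthesis (D27, D17 and D10) and 3 of hormone signalling (D14, D3 and D53). The genes were chosen by name and matched by identifier, and all 6 had a row among the 35664 gene identifiers of the deposited table. D27, D3 and D53 were higher in RNA of isolated nuclei than in the cell's poly(A) RNA, by 6.84, 7.43 and 6.32 times on mean RPKM (reads per kilobase, corrected for library depth). The receptor gene D14 was the highest of the 6 in both pools, with overlapping levels. D17 and D10 had few reads in nuclear RNA and overlapping pools, and a difference was not resolved for either gene.

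Strigolactones are carotenoid-derived hormones that restrain shoot branching, shape root growth and, when released from roots, attract arbuscular mycorrhizal fungi and parasitic weeds. In plastids the isomerase D27 and the carotenoid cleavage dioxygenases D17 (CCD7) and D10 (CCD8) act in turn on beta-carotene to make carlactone, which cytochrome P450 enzymes oxidise further. The hormone is bound and hydrolysed by the receptor D14, which then joins the F-box protein D3 in a ubiquitin ligase, and the repressor D53 is degraded. Roots are a main site of strigolactone synthesis, which is known to increase when phosphate is short.

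The samples were seedlings of cultivar Nipponbare, 7 days old, grown with 1% sucrose, of which the last 1 cm of the root was taken. The poly(A) pool was captured with oligo(dT) from a cell extract of the line p35S:HF-FLAG-OsRPL18, which carries a tagged ribosomal protein. The nuclear pool came from the line p35S:OsNTF2, in which a tag at the nuclear envelope lets nuclei be captured on streptavidin beads, and its ribosomal RNA was degraded. Both transgenes are driven by the 35S promoter, which is active in most cell types, and both kinds of library were random primed. RNA pool, plant line and RNA selection changed together and cannot be told apart. The labels also give full-strength medium (1) for the poly(A) pool and a strength of 0.5 for the nuclear pool, whereas the series' design names 1 condition for all samples. The series describes the 4 libraries of a pool as biological replicates, on which all p-values depend.

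Nuclear libraries were far shallower, with 1073589 to 2290282 reads on genes, than poly(A) libraries, with 19430874 to 29974185. For a gene of 1 kb, a single nuclear read therefore stood for 0.436 to 0.9299 RPKM and a single poly(A) read for 0.0333 to 0.0514 RPKM. All 4 root marker genes looked for were above 0 in every library, and their levels summed to between 279.3 and 348.0 RPKM (poly(A)) and between 181.4 and 287.3 RPKM (nuclear). Mean RPKM in poly(A) and nuclear RNA was lower in the latter for LSI1 (213.5 and 69.26) and CRL1 (12.48 and 5.412). It was higher there for LSI2 (88.94 and 121.5) and SHR1 (7.065 and 34.36). LSI1 and LSI2 made up most of the sums, and CRL1 had 30 nuclear reads in all. The 2 leaf markers summed to 1.64 to 3.99 RPKM and 3.23 to 7.89 RPKM, and of the 2 shoot meristem markers OSH1 was listed at 0 in all libraries while OSH15 had 1.09 to 1.88 RPKM (poly(A)) and 1.27 to 1.56 RPKM (nuclear). In such bulk samples, fewer cells with a transcript and less of it per cell cannot be told apart.

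Among the biosynthesis genes, D27 (OS11G0587000), the isomerase that opens the pathway, had the highest level per length. D27 was scaled to a length of 3524 nt, against a median of 1499 nt over the tested genes, and its level depends on that length. Its level was 2.58, 2.19, 2.81 and 1.79 RPKM in poly(A) replicates 1 to 4, from 273, 150, 284 and 181 reads. In nuclear replicates 1 to 4 it was 15.1, 15.1, 13.8 and 20.1 RPKM, from 75, 122, 64 and 76 reads. Every nuclear library lay above every poly(A) library, and nuclear replicate 4 stood above the other 3 of its pool. Mean levels were 2.34 ± 0.451 RPKM for the poly(A) pool and 16.0 ± 2.76 RPKM for the nuclear pool (SD, n = 4 each). On the log2(RPKM + 1) scale, which understates differences at low levels, D27 was higher in nuclear RNA by 2.35 (95% interval 1.97 to 2.72, adjusted p = 6.2e-06 by limma). The reads summed over each pool gave a nuclear to poly(A) ratio of 6.66, with a 95% interval for counting error of 5.85 to 7.55.

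D17 (OS04G0550600) encodes the first of the cleavage dioxygenases, CCD7. It was even among the poly(A) libraries, at 0.595, 0.714, 0.899 and 0.879 RPKM from 36, 28, 52 and 51 reads. The nuclear libraries gave 0, 0.432, 2.64 and 1.84 RPKM from 0, 2, 7 and 4 reads, and thus lay on both sides of the poly(A) values. The log2 difference was 0.15 (95% interval −0.72 to 1.03, adjusted p = 0.744 by limma). It became −0.15 without nuclear replicate 3 and −0.03 without nuclear replicate 4, so its direction rested on single libraries. In nuclear replicate 1, where D17 had 0 reads, that count allows up to 1.05 RPKM (3 reads), which is above each poly(A) value. Had the nuclear level equalled that of poly(A) RNA, 9.52 reads would have been found over the 4 nuclear libraries, and 13 were.

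D10 (OS01G0746400), the CCD8 enzyme that makes carlactone, was the lowest of the 6 genes in both pools. Poly(A) replicates 1 to 4 had 0.253, 0.361, 0.122 and 0.224 RPKM from 13, 12, 6 and 11 reads, and the nuclear replicates 0, 0.51, 1.34 and 1.63 RPKM from 0, 2, 3 and 3 reads. The nuclear libraries with any D10 read were listed above all poly(A) libraries, and the one without a read at 0. In nuclear replicates 1, 3 and 4 a single D10 read would already stand above each poly(A) value. This order is therefore largely fixed by depth and was not read as a difference. That count of 0 allows up to 1.24 RPKM (3 reads), which is above each poly(A) value. D10 missed the minimum of a mean of 1 RPKM in either pool that was set for the fit over all genes. An exact two-sided permutation test of its log2 difference of 0.50 gave p = 0.257. Without nuclear replicate 1, the library at 0, the difference was 0.76, and D10 then passed the filter through its nuclear mean alone. It was therefore tested by limma in place of the permutation test (adjusted p = 0.0138), so the left-out library and the test changed together. The summed reads, 8 in nuclear RNA against 2.4 for equal levels, gave a ratio of 3.34 with a counting interval of 1.36 to 7.2.

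Among the signalling genes, the receptor gene D14 (OS03G0203200) had the highest level in each library. Its poly(A) levels were 122, 125, 134 and 146 RPKM and its nuclear levels 126, 115, 185 and 134 RPKM. The nuclear values enclosed the poly(A) values, and nuclear replicate 3 stood well above the other 7 libraries. Means were 131.5 ± 10.8 RPKM and 139.9 ± 30.7 RPKM (SD, n = 4 each), from 20935 and 1230 reads. The log2 difference was 0.07 (95% interval −0.32 to 0.46, adjusted p = 0.736 by limma), an interval that leaves room for a modest difference either way. It turned to −0.07 without nuclear replicate 3.

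D3 (OS06G0154200), the F-box protein of the receptor complex, showed the largest difference of the tested members. Its levels were 9.14, 9.15, 10.0 and 8.43 RPKM in poly(A) libraries, whereas the nuclear libraries had 66.1, 62.4, 65.6 and 78.8 RPKM. The pools were far apart, and nuclear replicate 4 was again the highest. Means were 9.18 ± 0.644 RPKM and 68.2 ± 7.23 RPKM, from 3882 and 1611 reads. The log2 difference was 2.76 (95% interval 2.47 to 3.06, adjusted p = 1.09e-06 by limma), larger than that of 97.79% of the 26928 tested genes. With a trend on gene length taken off it was 2.17 and kept its call, but D53 then had the larger difference, 2.31. D3 was scaled to a length of 3954 nt, against a median of 1499 nt over the tested genes.

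D53 (OS11G0104300), the repressor that strigolactone removes, had 3.78, 2.97, 3.62 and 2.55 RPKM in the poly(A) libraries. The nuclear libraries had 20.5, 21.5, 20.8 and 18.9 RPKM, from 54, 92, 51 and 38 reads. All nuclear values exceeded all poly(A) values. The nuclear values were the least scattered of any member in that pool (CV 5.28%), which at 38 to 92 reads per library need not reflect the gene. Means were 3.23 ± 0.574 RPKM and 20.4 ± 1.08 RPKM, and the log2 difference was 2.35 (95% interval 2.03 to 2.67, adjusted p = 2.85e-06 by limma). The row of D53 was scaled to a length of 1870 nt and that of OS12G0104300, a gene for a protein with a Clp N-terminal domain and a near copy of D53, to 4867 nt. Reads shared by these copies may have been split between the rows, and levels per length depend on the lengths the authors used. The ratio of 1 gene's RPKM between pools does not depend on that length, but its difference on the log2(RPKM + 1) scale does through the added 1.

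**Figure D1:**
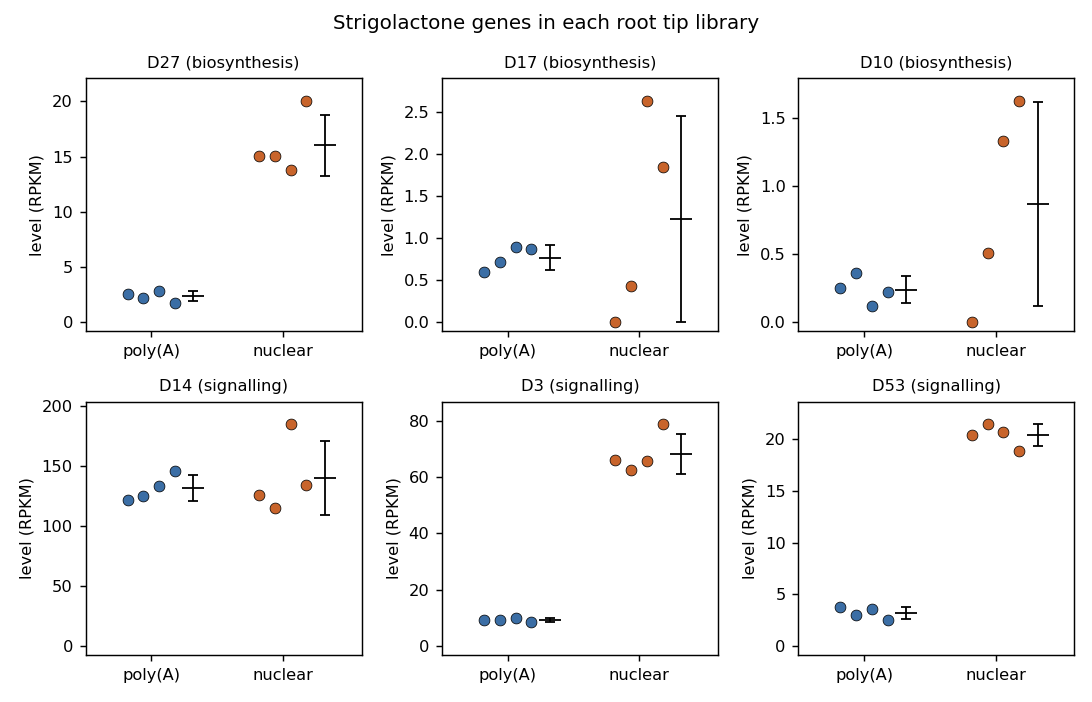
Level of each gene in RPKM (y axis, a separate linear scale per panel) in the 4 poly(A) libraries (blue points, replicates 1 to 4 from left to right) and the 4 nuclear libraries (orange points); horizontal bars are means and error bars 1 SD. D27, D3 and D53 have separate pools, D14 overlaps around 115 to 185 RPKM, and D17 and D10 each have a nuclear library at 0.

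Of the 5 members tested, 3 were higher in nuclear RNA and 0 lower at an adjusted p under 0.05 by limma, whereas 33.1% of all tested genes were higher and 30.0% lower, together 63.0%. At an unadjusted p under 0.05 the count of lower members was also 0. D17 passed the filter on low levels only through its nuclear mean, so these counts are descriptive. The same 3 members had pools that did not overlap, which held with nuclear higher for 31.7% of tested genes. The median log2 difference was 2.35 over the 5 tested members and 0.08 over all tested genes. Other scalings moved the latter to between −0.08 (median centring) and 0.33 (rescaling without the 100 highest genes), and differences are relative to it. The share called higher and lower over all genes was 39.1% and 23.2% under that rescaling, 38.2% and 23.9% after rescaling to an equal sum, and 28.9% and 34.1% under median centring. D27, D3 and D53 were higher under each of these scalings, while D14 had −0.09 under median centring and 0.66 with quantile normalization (adjusted p = 0.0148 by limma).

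**Figure D2:**
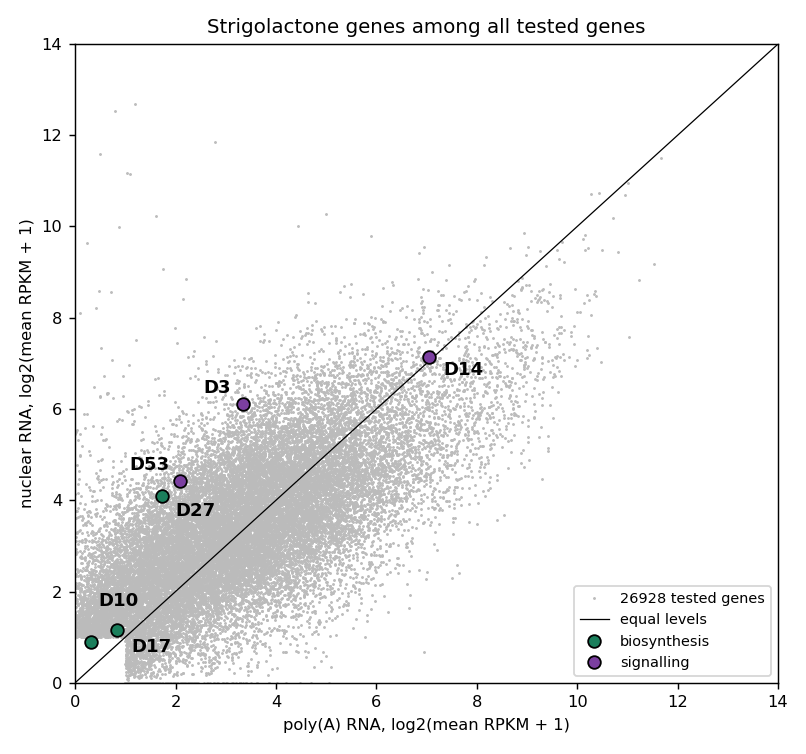
Mean level in nuclear RNA (y axis) against mean level in poly(A) RNA (x axis), both as log2(mean RPKM + 1), for the 26928 tested genes (grey) and the 6 strigolactone genes (green, biosynthesis; purple, signalling); the line marks equal levels. D3, D53 and D27 lie above the line on the upper side of the cloud, D14 lies on it near the top right, and D17 and D10 lie at the low corner.

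Role in the pathway did not divide the genes by their pool difference, since D27 of synthesis and D3 and D53 of signalling were higher in nuclear RNA. Each pair of members was compared by the difference of their log2 values within a library. A scaling factor common to all genes of a library can move this difference only through the pseudocount. Quantile normalization and the length trend can move it, and the pair tests were not repeated under them. Exact two-sided permutation tests over the 8 libraries, adjusted over the 15 pairs, gave 11 pairs with unequal pool differences. Each of these had an exact permutation p = 0.0286, the smallest that 4 against 4 libraries allow, and an adjusted p of 0.039. They were 6 of the 9 pairs that join a synthesis gene with a signalling gene and 5 of the 6 pairs within a role. The pairs share genes, and no share over pairs of other genes was computed, so the count is descriptive. Of all tested genes, 63.0% differed between the pools. Pairs with D17 or D10 rested on 13 and 8 nuclear reads of those genes. With a pseudocount of 0.1 in place of 1, 7 pairs had an unadjusted p of 0.0286 and 0 passed the adjustment (adjusted p = 0.0612 by the same permutation test).

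The receptor and its partners gave the clearest unequal differences. D14 exceeded D3 by 13.3 to 17.3 times in poly(A) libraries and by 1.7 to 2.81 times in nuclear libraries, ranges that do not overlap. D14 likewise exceeded D53 by 32.2 to 57.3 times in poly(A) RNA and by 5.37 to 8.9 times in nuclear RNA. The difference of D14 was smaller than that of D3 by 2.69 and than that of D53 by 2.28 on the log2 scale. Within synthesis, the difference of D27 was larger than that of D17 by 2.19.

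D27 and D53 could not be separated, with log2 differences that were 0.00 apart (exact permutation p = 0.971). D53 stood above D27 in 4 of 4 poly(A) libraries and in 3 of 4 nuclear libraries. The difference of D3 was larger than those of D27 by 0.42 and of D53 by 0.41, with no overlap of the pools at a pseudocount of 1. With a pseudocount of 0.1 these gaps were 0.15 and 0.24, and the exact permutation tests gave p = 0.229 and p = 0.2. The order also depended on gene length. With the length trend taken off, the differences were 2.31 for D53, 2.17 for D3 and 1.87 for D27, and pairs were not tested in that setting.

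The order of levels per length was D14, D3, D53, D27, D17 and D10 in both pools. In poly(A) RNA the mean of D14 was 14.3 times that of D3, and the steps below it were 2.85, 1.38, 3.04 and 3.22 times. In nuclear RNA the steps from D14 down were 2.05, 3.35, 1.27, 13.0 and 1.41 times. The ranges of D53 and D27 overlapped in both pools and those of D17 and D10 in nuclear RNA, while all other neighbours were apart in range. Against all tested genes, the mean of D3 lay above 53.5% of genes in poly(A) RNA and above 93.8% in nuclear RNA. For D53 these shares were 29.4% and 73.6%, for D27 23.3% and 67.2%, and for D14 96.2% and 98.1%.

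Summed by role, the synthesis genes came to 3.43, 3.26, 3.83 and 2.89 RPKM in the poly(A) libraries. Their nuclear sums were 15.1, 16.0, 17.8 and 23.5 RPKM, all above the poly(A) sums. Their share of the summed level of all 6 genes was 1.81 to 2.54% in poly(A) RNA and 6.16 to 9.22% in nuclear RNA. D27 alone made up 61.8 to 75.3% of the synthesis sum in poly(A) RNA and 77.7 to 100% in nuclear RNA, where the value of 100% belongs to the library without D17 or D10 reads. The signalling genes summed to 134.7, 136.8, 147.1 and 156.9 RPKM in the poly(A) libraries and, again with no overlap, to 212.5, 199.0, 270.9 and 231.8 RPKM in the nuclear ones. D14 held 88.2 to 91.3% of the 6-gene sum in the poly(A) libraries and 52.5 to 63.9% in the nuclear libraries, with D3 and D53 taking most of the rest.

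**Figure D3:**
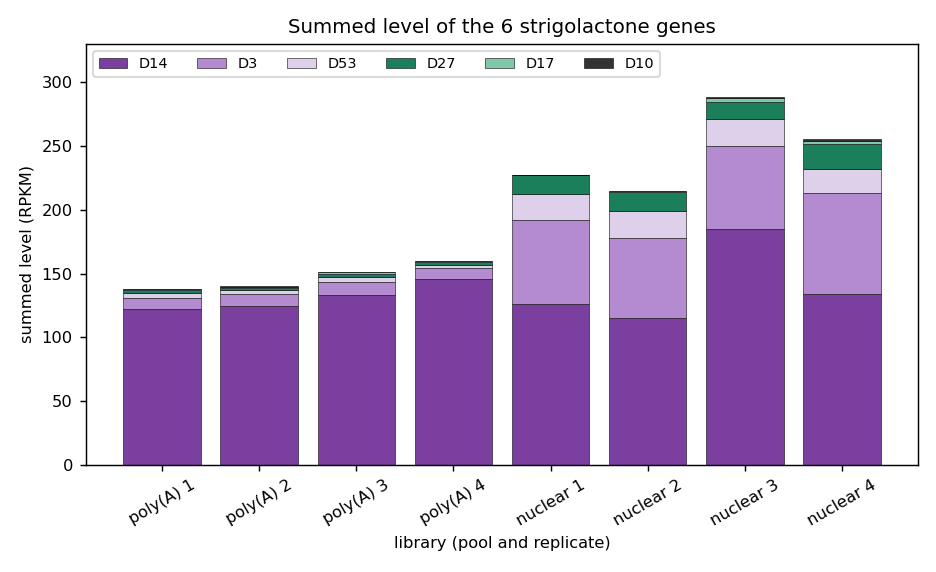
Summed level of the 6 genes in RPKM (y axis, from 0) in each library (x axis, pool and replicate), stacked by gene. D14 fills nearly all of each poly(A) bar, and the nuclear bars are taller mainly through D3, D53 and D27.

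Replicates of a pool did not rank the members alike. Poly(A) replicate 4 was the lowest of its pool for D27, D3 and D53 and the highest for D14. Nuclear replicate 4, the shallowest library, was the highest of its pool for D27, D10 and D3 and the lowest for D53. Here the D10 rank rested on 3 reads, as many as in nuclear replicate 3, and the D53 rank on 38 reads. Nuclear replicate 3 was the highest for D17 and D14. The scatter of D14 was larger among nuclear than among poly(A) libraries (CV 22.0% and 8.24%), as it was for D3 (10.6% and 7.02%), whereas it was smaller for D53 (5.28% and 17.8%) and D27 (17.3% and 19.3%). Whether these scatters differ was not tested, and counting error is larger at the nuclear depth.

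Of 28 further genes of the pathway that were looked up, 26 had a row, 2 regulators of synthesis were not analysed here, and 22 passed the filter on low levels. Among those, 9 were higher in nuclear RNA, 6 were lower and 7 did not pass the test, and their median log2 difference was −0.24 against 0.08 for all tested genes. These shares of higher and lower genes stand beside 33.1% and 30.0% of all tested genes. The lower genes were 1 relative of the members, 2 signalling partners and 3 carotenoid enzymes.

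The 5 genes of later synthesis encode cytochrome P450 proteins, the enzyme class that oxidises carlactone, and 2 of the 3 tested were higher in nuclear RNA. OS02G0221900 had 3.85 ± 0.277 RPKM in the poly(A) pool and rose to 23.5 ± 3.64 RPKM in the nuclear pool (log2 difference 2.33, adjusted p = 3.85e-06 by limma). OS06G0565100 rose from 6.73 ± 0.662 to 15.4 ± 5.62 RPKM, with a log2 difference of 1.01. OS01G0701500 had 4.06 ± 1.04 and 3.18 ± 1.37 RPKM and did not pass. SLB2, at 0.259 to 0.469 RPKM in poly(A) RNA, had 49 reads there and 0 in nuclear RNA, where 2.79 would be found at equal levels, so a difference was not detectable at this depth.

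Of 6 rows looked up as relatives of the members, 5 were tested, with 2 higher and 1 lower. The near copy of D53, OS12G0104300, rose from 4.42 ± 0.455 to 10.7 ± 2.78 RPKM (log2 difference 1.09, adjusted p = 0.0011 by limma). D53 stood at 0.626 to 0.81 times its near copy in poly(A) libraries and at 1.52 to 2.54 times in nuclear libraries. OS03G0437600, annotated as similar to a hydrolase, fell from 16.7 ± 0.395 to 8.38 ± 2.26 RPKM, and OS08G0250900, a conserved hypothetical protein, rose from 8.16 ± 0.719 to 50.5 ± 6.32 RPKM. The carotenoid cleavage dioxygenase gene OS12G0640600, at 30.6 ± 3.27 and 22.8 ± 8.31 RPKM, did not pass, and OS01G0566500, similar to the pea dioxygenase RAMOSUS1, had 30 poly(A) reads and 0 nuclear reads where equal levels would give 1.71, so a difference was not detectable.

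Among 7 signalling partners and targets, 6 were tested, with 2 higher and 2 lower. WFP, the SPL-type transcription factor whose activity D53 represses in rice, rose from 5.9 ± 0.189 to 17.3 ± 1.31 RPKM (log2 difference 1.40, adjusted p = 1.43e-05 by limma). CKX9, a cytokinin dehydrogenase gene, rose from 0.389 ± 0.0582 to 1.57 ± 0.754 RPKM and passed the filter only through its nuclear mean. OS11G0456300, similar to the ubiquitin ligase adaptor SKP1 that F-box proteins such as D3 bind, fell from 186.8 ± 2.57 to 63.3 ± 9.11 RPKM (log2 difference −1.56), opposite in direction to D3. The WD40 repeat gene OS03G0254700 fell from 57.5 ± 2.33 to 39.4 ± 5.22 RPKM. The co-repressor gene ASP1, at 47.8 ± 1.76 and 42.9 ± 2.01 RPKM, did not pass although its pools did not overlap, and the branching repressor FC1 was listed at 0 in all libraries.

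The 8 genes for carotenoid precursor enzymes, which supply beta-carotene, were all tested, with 3 higher and 3 lower. The phytoene synthase genes PSY1 and PSY2, for the first committed step, rose from 1.45 ± 0.188 to 5.35 ± 0.536 RPKM and from 13.1 ± 1.13 to 28.8 ± 7.47 RPKM. The lycopene cyclase gene OS02G0190600 rose from 4.76 ± 0.416 to 13.4 ± 1.83 RPKM. The desaturase and isomerase genes annotated as such fell. PDA, for phytoene desaturase, went from 14.3 ± 0.853 to 4.15 ± 3.11 RPKM, OS07G0204900, for zeta-carotene desaturase, from 18.2 ± 0.541 to 6.49 ± 1.66 RPKM, and the carotenoid isomerase gene OS11G0572700 from 5.17 ± 0.293 to 3.28 ± 0.537 RPKM. The adjusted p of these 6 genes lay between 2.73e-05 and 0.00799 by limma. The other 2 genes, OS09G0555500 (similar to phytoene synthase 3) at 1.43 ± 0.422 and 0.697 ± 0.859 RPKM and OS12G0405200 at 10.3 ± 0.706 and 16.1 ± 6.71 RPKM, did not pass.

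**Figure D4:**
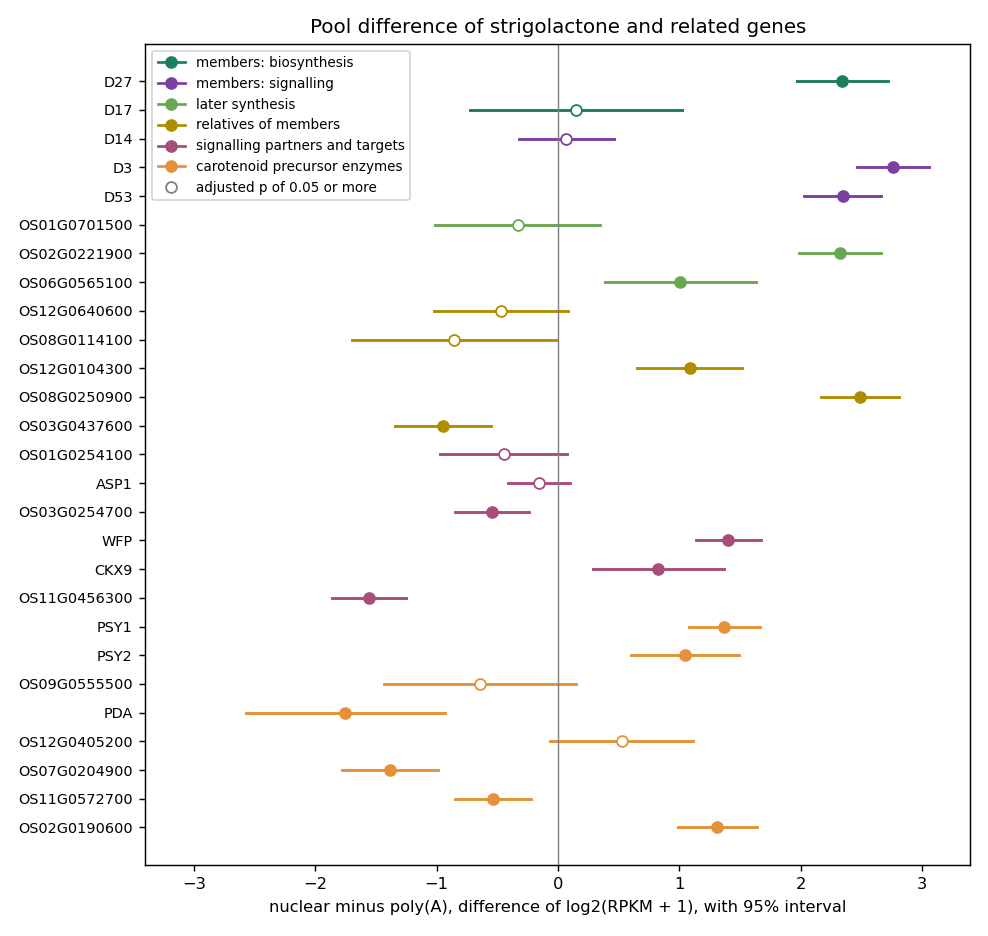
Nuclear minus poly(A) difference of log2(RPKM + 1) (x axis) with its 95% interval for the 5 tested members and 22 further tested genes of the pathway (y axis), coloured by group; filled points passed an adjusted p under 0.05 by limma and open points did not. D3, D27 and D53 lie between 2.35 and 2.76, and the lowest value is −1.75 for PDA.

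The genes whose levels over the 8 libraries were most like those of a member were found by Euclidean distance on log2(RPKM + 1), among genes with a symbol. For D3 they were SPL19, an SPL-family gene by its symbol (distance 0.48), and CMT3, similar to a cytosine-specific methyltransferase (0.602). For D53 they were SCR (0.6) and BG1 (0.624), and for D27 CDT1 (0.573) and SCR1 (0.648), of which SCR and SCR1 are annotated as SCARECROW or similar to it. For D14 they were the neutral invertase gene NIN8 (0.708) and the cellulose synthase-like gene CSLA1 (0.745). D17, with GSTZ4 (0.944) and NAC18 (0.962), and D10, with SAUR7 (0.639) and RLCK87 (0.757), were matched on few nuclear reads.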

How the data were processed

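RNA sequencing libraries of 2 RNA pools of rice root tips were compared. The authors deposited RPKM per gene and library. The submitters' processing notes name the IRGSP-1.0 build and the tools TopHat2 2.1.1, CASAVA 1.8 and FastQC. How reads were counted, with which strand setting and annotation, is not given in the sources used here, so reads of overlapping genes cannot be told apart. Low RPKM values were whole multiples of the value of 1 read. Every value of the 33191 genes above 0 was a whole number of reads to within 0.0001 of a read, with a wider tolerance at high read counts. A gene above 0 in only 1 library meets this by construction. Among genes with many reads, 99.8% of the gene lengths were within 0.02 nt of a whole number. D17 and D10 had too few reads to be part of that check on lengths. Reads and lengths given here are recovered in this way. These lengths need not equal those of gene models. Counting intervals and the limit that 0 reads allow cover counting error only.

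Pool differences were tested with limma 3.58.1 in R 4.3.3 on log2(RPKM + 1), for genes with a mean of at least 1 RPKM in either pool. Tests were two-sided and adjusted over 26928 genes (Benjamini-Hochberg). The scripts were tested on simulated data. D10, under the filter, had an exact permutation test. The alternatives were other pseudocounts, filters and scalings, voom on the recovered reads, thinned reads, a length trend, the replicate number as a block and each library left out. The pair tests of members and their alternatives were added after seeing the data. The members and the gene lists were chosen with earlier results of these data known. All members and listed genes may be named, with the 2 genes nearest to each member. A nuclear sample of the shoot base was not analysed here, nor were sequences and coordinates.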

Additional observations from a re-analysis of the deposited data

Results flagged for a closer look

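Within each pool, every member and further pathway gene was checked for a library far from the other 3 by Dixon's criterion. Of the 64 groups of 4 values, chance flags about 1 in 20 if values are normally distributed. That rate need not hold at a few reads, and groups at 0 in all 4 libraries could not be flagged. None of the 6 members met the criterion in either pool. It was met by 4 further genes, 3 of them at 2 or 3 reads. OS01G0700900, a cytochrome P450 gene, had 0.676 RPKM (3 reads) in nuclear replicate 2 and 0 in the other nuclear libraries. OS01G0701500, of the same enzyme class, had 1.14 RPKM (2 reads) in nuclear replicate 4 against 3.71 to 3.99 RPKM in the others. OS08G0114100, a conserved hypothetical protein, had 2.32 RPKM (3 reads) in nuclear replicate 4 against 0 to 0.363 RPKM. OS12G0405200, annotated as similar to an NnrU-type membrane enzyme, had 11.3 RPKM (446 reads) in poly(A) replicate 3 against 9.83 to 10.1 RPKM.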

How the results depend on the processing

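D27, D3 and D53 were higher in nuclear RNA and past the threshold in all 20 alternatives run for each. Their log2 differences ranged from 1.87 to 2.76, 2.17 to 3.05 and 2.19 to 2.77, the lowest of D27 and D3 being those with the length trend taken off. D17 had −0.241 with a pseudocount of 0.1 and −0.006 with median centring, and −0.146 to 0.48 when single libraries were left out. D14 had −0.087 with median centring, 0.657 and a call with quantile normalization, and −0.071 (without nuclear replicate 3) to 0.15 with single libraries left out. D10 had 0.923 with a pseudocount of 0.1, 0.880 with thinned reads and 1.750 with voom, none of them past the threshold, and 0.30 to 0.764 when single libraries were left out. Without nuclear replicate 1, D10 entered the limma fit through its nuclear mean and was called there, so the count of members higher was 4 in place of 3. The cause of these changes was not tested. With a minimum mean of 5 RPKM, D17 and D10 had no value. The count of unequal member pairs was 0 with a pseudocount of 0.1, 9 with 0.5 and 9 to 12 with single libraries left out. Replicates with the same number did not deviate together across pools (correlations −0.048 to 0.009, none best with its own number). With the replicate number as a block, 3 members were again higher, at a difference of 2.345 for D27 and an adjusted p of at most 0.000482 by limma, and no call changed. Nuclear depth limits D17 and D10, with 13 and 8 reads in all.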
